A study of Mus musculus with 4 samples.

Results

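Carbonic anhydrases were followed as a family of 8 genes (Car2, Car4, Car7, Car8, Car10, Car11, Car12 and Car14) among the 15713 genes measured in the mouse hippocampus. The members were taken by gene symbol, all 8 were found, and each was above 1 CPM (a count scaled to the size of its library) in all 4 libraries. The members were chosen by family name with the ATO and control values of earlier results known, so the differences below describe these libraries and are not independent evidence. The carbonic anhydrase genes Car5b and Car15 are also in the table and are given as context. Other carbonic anhydrase genes that were looked for were not among the 15713 genes, so they were not analysed here. The tissue was hippocampus and the mice were of the inbred C57BL/6 strain, 11 to 12 weeks old. The 2 control libraries came from untreated mice, and the 2 ATO libraries from mice with a developmental exposure labelled 5000 ppb ATO. ATO is not spelled out in the labels, but the series title names arsenic exposure of offspring. Nothing in the labels states the sex, the litter, the route of exposure or whether a library is 1 animal, so the spread between replicates may be technical.

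Carbonic anhydrases are zinc enzymes that interconvert carbon dioxide and water with bicarbonate and a proton. In brain they set how fast pH shifts are buffered inside and outside cells, and they feed bicarbonate to transporters in the choroid plexus, where cerebrospinal fluid is made. Car2 and Car7 act in the cytosol, Car4 is held on the outer face of the membrane by a lipid anchor, and Car12 and Car14 span the membrane with the enzyme domain outside. Car8, Car10 and Car11 are carbonic anhydrase-related proteins, which keep the fold of the family without the enzyme activity.

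The split between enzymes and related proteins is visible in the coding sequence of 6 of the members, so their stretch over the zinc site is shown. Coding sequences were read only for members with an entry among the promoters used below, which leaves out Car2 and Car8. Zinc is held by 3 histidines. The lines give 33 bases of the coding strand around the first 2 of these sites (GENCODE vM21 transcripts of GRCm38, aligned to Car7), with histidine codons at those sites in capitals.
Car7: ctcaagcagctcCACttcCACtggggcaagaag
Car4: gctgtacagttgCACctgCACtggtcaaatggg
Car12: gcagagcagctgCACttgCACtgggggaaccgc
Car14: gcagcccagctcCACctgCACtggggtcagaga
Car10: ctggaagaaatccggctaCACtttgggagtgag
Car11: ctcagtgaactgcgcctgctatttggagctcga
Car4, Car7, Car12 and Car14 have a histidine codon at 3 of 3 zinc sites. Car10 has 1 of 3 and Car11 has 0 of 3.

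Of the 8 genes, Car12 and Car14 rose in ATO, Car7 fell, and Car2, Car4, Car8, Car10 and Car11 did not pass the threshold, an adjusted p under 0.05 over all genes in edgeR's quasi-likelihood test. Among all genes tested 3.73% passed, 2.87% higher and 0.859% lower, and the groups did not overlap for 48.1% of all genes against 5 of the 8 members. Nothing is read from these shares, since the members were listed with the comparison known. The median log2 fold change of the 8 genes was 0.15, beside -0.005 over all genes, and their values ran from -1.002 to 0.84. All 3 genes that passed encode catalytic forms, and none of the 3 related proteins passed; whether these classes differ was not tested.

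Per unit of transcript length, in the authors' deposited FPKM (fragments per transcript length and library depth), Car11 and Car2 were the most abundant members. In the controls the mean FPKM was 73.05 for Car11 and 64.4 for Car2, followed by 27.2 for Car4. Car10, Car7 and Car12 lay next to each other at 6.39, 6.26 and 6.21, and their replicates overlapped. Car14 stood at 2.56 and Car8 at 1.07. In ATO the middle of this order was different: Car12 came to 9.94, Car10 to 7.47, Car14 to 4.59 and Car7 to 3.14, with no overlap between neighbours there. Car11 and Car2, which did not overlap in the controls, did overlap in ATO, at means of 71.3 and 69.5.

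**Figure D1:**
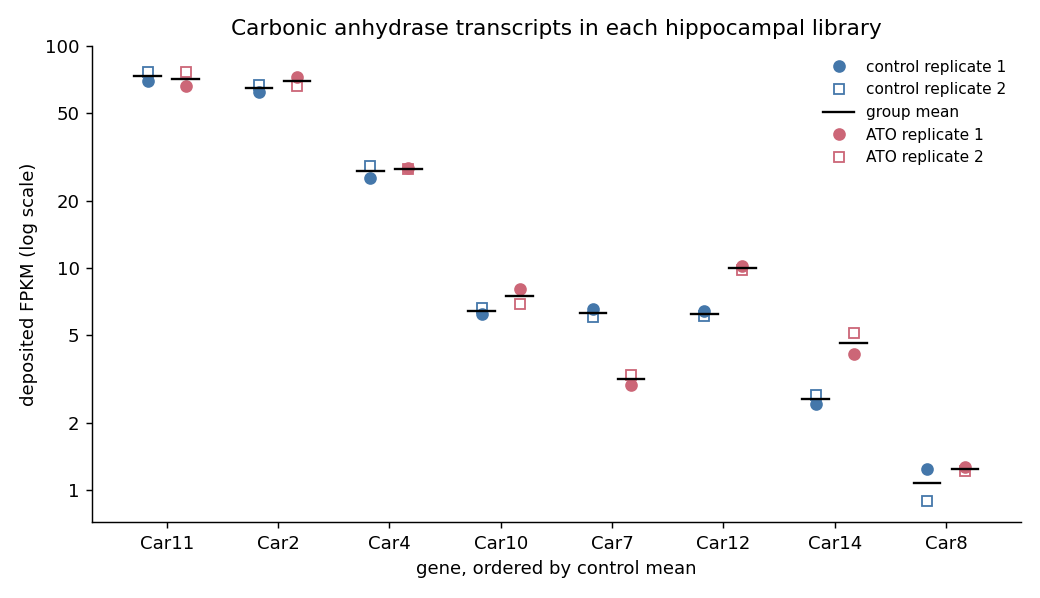
Deposited FPKM (log axis) of the 8 carbonic anhydrase genes in each of the 4 libraries, with replicate 1 as filled circles, replicate 2 as open squares and group means as black lines. Car7, Car12 and Car10 share a level near 6 FPKM in the controls, and in ATO they stand at 3.14, 9.94 and 7.47.

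Summed over the 8 genes, FPKM was 179.9 and 194.3 in the controls against 193.5 and 196.8 in ATO, so the groups overlapped on that scale. In normalised CPM, which is not per length, the sum was 460.6 and 486.1 against 509.4 and 513.3, and the groups did not overlap. Car2, Car11 and Car4 made up 87.4% and 88.6% of the FPKM sum in the controls against 86.3% and 86.7% in ATO. Of the same FPKM sum, the membrane-spanning pair Car12 and Car14 together took 4.88% and 4.50% in the controls against 7.36% and 7.53% in ATO. Car7 took 3.62% and 3.09% against 1.54% and 1.68%. The ratio of Car12 to Car7 FPKM was 0.975 and 1.01 in the controls against 3.42 and 2.95 in ATO.

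Among the cytosolic enzymes, Car7 (ENSMUSG00000031883, GRCm38 chromosome 8 from 104534689 to 104550343, plus strand) is the neuronal form, whose bicarbonate supply is known to shape GABA responses of hippocampal pyramidal neurons. It was counted 352 and 330 times in the controls against 187 and 201 in ATO, or 23.9 and 21.9 against 10.7 and 12.1 normalised CPM. Both ATO libraries lay below both controls. The mean went from 22.9 ± 1.43 to 11.4 ± 0.965 CPM (SD, n = 2 per group), which is 2.003-fold lower (log2 -1.002 ± 0.13, SE; edgeR adjusted p = 0.000527), and the 95% interval of the ATO to control ratio ran from 0.409 to 0.609. With each library left out in turn the log2 fold change stayed between -1.09 and -0.92, and the call held in all 4 fits.

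Car2 (ENSMUSG00000027562, chromosome 3 from 14886273 to 14900770, plus strand) is the abundant cytosolic form of oligodendrocytes and of the choroid plexus. It had 152 and 161.3 normalised CPM in the controls against 175 and 161.4 in ATO. ATO replicate 2 was level with control replicate 2, so the groups were barely apart. The log2 fold change was 0.10 ± 0.08 with an edgeR adjusted p of 0.532, and its 95% interval ran from -0.06 to 0.27. A rise of more than 1.20-fold or a fall below 0.957 of the control level lies outside that interval.

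Of the forms with an extracellular enzyme domain, Car12 (ENSMUSG00000032373, chromosome 9 from 66713686 to 66766845, plus strand) had the smallest p of the family. It was counted 717 and 696 times in the controls against 1335 and 1235 in ATO, or 48.6 and 46.1 against 76.6 and 74.3 normalised CPM. The replicates of each group were close and the groups were far apart. The mean went from 47.4 ± 1.80 to 75.5 ± 1.62 CPM (SD, n = 2 per group), a 1.59-fold rise (log2 0.67 ± 0.08, edgeR adjusted p = 0.000260). The call held without each of the 4 libraries, with log2 values from 0.63 to 0.71.

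Car14 (ENSMUSG00000038526, chromosome 3 from 95897768 to 95904691, minus strand), the other membrane-spanning form, is known from neurons and glia as an extracellular buffer enzyme. It was measured at lower depth, with counts of 92 and 103 in the controls against 179 and 217 in ATO, or 6.24 and 6.82 against 10.3 and 13.1 normalised CPM. Both ATO libraries lay above both controls, and they were further apart from each other than the controls were. The mean went from 6.53 ± 0.410 to 11.7 ± 1.97 CPM (SD, n = 2 per group), a 1.78-fold rise (log2 0.84 ± 0.19, edgeR adjusted p = 0.0237). The call held without ATO replicate 1, at log2 1.00 and an edgeR adjusted p of 0.00258. It was lost in the other fits with 1 library fewer: control replicate 1 (log2 0.77, edgeR adjusted p = 0.0877), control replicate 2 (log2 0.90, 0.0964) or ATO replicate 2 (log2 0.65, 0.140). It was also lost by the Wald test of DESeq2, at log2 0.83 and an adjusted p of 0.0561. Car14 shares 445 of its 2543 exon bases with Aph1a, a gamma-secretase subunit gene on the opposite strand. Whether counting used strand is not given in the sources used here, so reads of the shared bases cannot be told apart. Aph1a had 24.5 and 25.2 normalised CPM in the controls against 27.7 and 25.2 in ATO (log2 0.09 ± 0.11, edgeR adjusted p = 0.729).

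Car4 (ENSMUSG00000000805, chromosome 11 from 84957786 to 84966044, plus strand), the lipid-anchored form known from brain capillaries, had 50.5 and 56.8 normalised CPM in the controls against 54.8 and 55.1 in ATO. The ATO libraries fell between the controls. Its log2 fold change was 0.03 ± 0.09 (edgeR adjusted p = 0.885), with a 95% interval from -0.16 to 0.23.

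**Figure D2:**
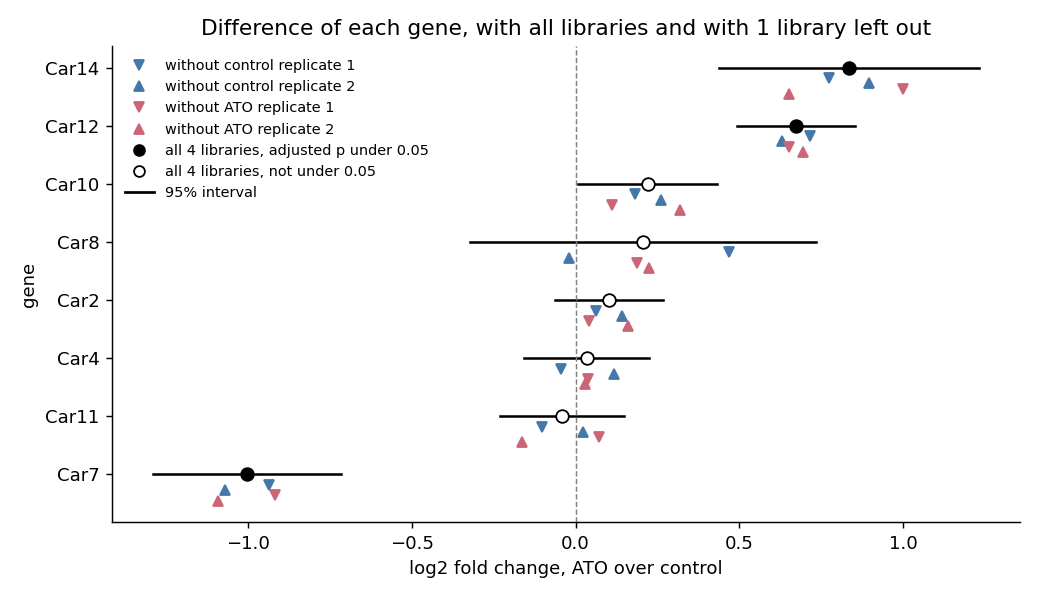
Log2 fold change of ATO over control for each carbonic anhydrase gene, with its 95% interval (black line) and the value with 1 library left out (triangles); filled circles passed the threshold. Car7 stays between -1.09 and -0.92 and Car12 between 0.63 and 0.71, while Car14 moves between 0.65 and 1.00 and Car4, Car8 and Car11 have values on both sides of 0.

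The related proteins gave no call. Car10 (ENSMUSG00000056158, chromosome 11 from 93098028 to 93601749, plus strand), a secreted partner of neurexins, had 39.5 and 42.0 normalised CPM in the controls against 50.9 and 44.1 in ATO. Both ATO libraries were above both controls, and ATO replicate 2 was only slightly so. The log2 fold change of Car10 was 0.22 ± 0.10, with an unadjusted p of 0.0424 and an adjusted p of 0.257 in edgeR, and it was 0.11 without ATO replicate 1 and 0.32 without ATO replicate 2.

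Car11 (ENSMUSG00000003273, chromosome 7 from 45699843 to 45704682, plus strand), a secreted relative of Car10, had 134.9 and 147.7 normalised CPM in the controls against 126 and 148.5 in ATO. The ATO libraries enclosed the controls. Its log2 fold change was -0.04 ± 0.09 (edgeR adjusted p = 0.858), with a 95% interval from -0.23 to 0.15.

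Car8 (ENSMUSG00000041261, chromosome 4 from 8143362 to 8239041, minus strand) binds the inositol trisphosphate receptor and is best known from cerebellar Purkinje cells. It was counted 71 and 52 times in the controls against 84 and 78 in ATO, the lowest of the 8 members. In normalised CPM the ATO libraries, at 4.82 and 4.70, stood level with or just below control replicate 1 (4.82) and above control replicate 2 (3.44). The log2 fold change of 0.21 ± 0.25 (edgeR adjusted p = 0.723) had a 95% interval from -0.32 to 0.73, which leaves in a rise of up to 1.66-fold.

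The promoters of Car12, Car14 and Car7 are shown because these are the 3 members that passed. The RefSeq promoter table (GRCm38.p6) matched 6 of the 8 members, all but Car2 and Car8, and each line holds 250 bases before to 50 bases after a start, 5′ to 3′ on the gene's strand. The windows are chr9:66713436-66713735 (plus strand) for Car12, chr3:95904636-95904935 (minus strand) for Car14 and chr8:104534450-104534749 (plus strand, of 3 listed starts the nearest to the annotated gene start) for Car7. Capitals mark matches to 6 motifs on either strand. ACGTG was searched as the hypoxia response core. The homeodomain motif bound by Otx2 was searched as TAATCC. For the half-site of the glucocorticoid receptor the letters were AGAACA. The CCAAT box was searched by its own name. TATAAA stood for the TATA box. For the GC box the letters were GGGCGG.
Car12: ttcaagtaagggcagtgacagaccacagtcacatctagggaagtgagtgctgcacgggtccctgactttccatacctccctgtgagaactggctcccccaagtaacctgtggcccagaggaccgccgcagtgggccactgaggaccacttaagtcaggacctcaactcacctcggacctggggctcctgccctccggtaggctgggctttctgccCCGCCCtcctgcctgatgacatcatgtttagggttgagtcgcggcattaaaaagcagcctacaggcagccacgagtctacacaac
Car14: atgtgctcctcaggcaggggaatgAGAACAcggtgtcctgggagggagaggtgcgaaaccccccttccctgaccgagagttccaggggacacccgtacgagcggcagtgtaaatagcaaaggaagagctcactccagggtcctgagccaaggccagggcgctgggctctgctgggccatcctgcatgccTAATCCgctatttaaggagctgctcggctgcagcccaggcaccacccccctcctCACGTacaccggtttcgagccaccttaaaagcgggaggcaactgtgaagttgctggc
Car7: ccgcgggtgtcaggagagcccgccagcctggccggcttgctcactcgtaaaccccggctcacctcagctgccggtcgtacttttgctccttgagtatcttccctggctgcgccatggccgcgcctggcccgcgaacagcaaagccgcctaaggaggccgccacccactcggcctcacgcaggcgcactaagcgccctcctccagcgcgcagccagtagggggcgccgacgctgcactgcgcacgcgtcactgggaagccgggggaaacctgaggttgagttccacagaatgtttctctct
The Car12 window held 1 GC box, which 35.7% of all 32851 windows hold, and none of the other motifs. The Car14 window held 1 match each to the hypoxia response core, the Otx2 motif and the glucocorticoid receptor half-site, which 19.6%, 7.06% and 19.0% of all windows hold, and these matches did not overlap. The Car7 window held none of the 6 motifs. It had 28 CpG dinucleotides, against 9 in Car12, 13 in Car14 and a median of 7 over all windows. Windows of members that did not pass had 22 (Car10), 15 (Car4) and 11 (Car11). The Car4 window also held 1 match to the hypoxia response core and 1 TATA box. The Car10 window held 2 GC boxes, and the Car11 window held none of the 6 motifs. A match is a description of the letters, and its use in these samples was not tested.

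Cell type markers were read in the same libraries, because in tissue RNA fewer cells of a type and less RNA per cell cannot be told apart. Markers of hippocampal pyramidal and granule neurons were present, with 10 of 10 in the table and summed levels of 7884 and 7309 CPM in the controls against 7659 and 7773 in ATO. Beside the rises of Car12 and Car14, 20 of 20 choroid plexus markers rose, against 2.87% of all genes. Their summed level was 143 and 216 CPM in the controls against 3359 and 4217 in ATO, and Wfdc2 alone of them had no count in either control. Most of these markers, among them Wfdc2, Slc4a5 and Aqp1, were under 1 CPM in both controls. Those were measured only through the ATO libraries, so only a rise could be seen for them and the count is a description. Of 10 ependymal markers 7 rose, from summed levels of 20.3 and 24.6 CPM to 55.8 and 40.6, and some of these too were under 1 CPM in both controls. Of 8 leptomeningeal markers 7 had a positive log2 fold change (median 0.70), against 7701 of all 15713 genes. Their summed level overlapped between the groups, at 108 and 91.6 against 127 and 91.0 CPM. In that list the growth factor gene Igf2 rose (1.70 ± 0.30, edgeR adjusted p = 0.00517) and the matrix gene Dcn fell (-0.56 ± 0.10, edgeR adjusted p = 0.00488), and both calls were lost without control replicate 2 (0.0699 and 0.0649). Car2, known from the choroid plexus as well, did not pass, at log2 0.10 ± 0.08 (edgeR adjusted p = 0.532). The part of choroid plexus, ependymal and leptomeningeal cells in the Car2, Car12 and Car14 values was not tested. With the choroid plexus markers left out of the library sizes, the log2 fold changes were 0.67 for Car12, 0.84 for Car14 and -1.0015 for Car7, and the 3 calls held. That fit changes only the scaling, so it cannot show how much of Car12 or Car14 came from those cells.

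Beside the fall of Car7, 9 of 10 interneuron markers had a negative log2 fold change and 1 of them fell, the neuropeptide gene Npy (-0.38 ± 0.09, edgeR adjusted p = 0.0419; 0.0611 to 0.135 without each library in turn). The interneuron markers summed to 1194 and 1290 CPM in the controls against 1054 and 1128 in ATO, with a median log2 fold change of -0.22 against -1.002 for Car7. Over all 15713 genes 7701 had a positive value. Among the 10 hippocampal neuron markers 1 fell, the wolframin gene Wfs1 (-0.42 ± 0.11, edgeR adjusted p = 0.0463), and that call was lost without control replicate 1 (0.0522), without control replicate 2 (0.263) and without ATO replicate 1 (0.411). Of the 10 hippocampal neuron markers 5 had a positive log2 fold change, and their median was 0.015. The part of interneurons and hippocampal neurons in the Car7 value was not tested. For Car2, the 16 oligodendrocyte markers summed to 4892 and 5034 CPM in the controls against 4943 and 4763 in ATO, and 1 of them fell, the myelin gene Opalin (-0.66 ± 0.13, edgeR adjusted p = 0.0107). The Opalin call was lost without control replicate 2 (0.0638) and without ATO replicate 1 (0.0640). For Car4, the 12 endothelial markers summed to 456 and 369 CPM in the controls against 444 and 432 in ATO. The controls lay on both sides of ATO in that sum, and 7 of the 12 markers had a positive log2 fold change (median 0.04). Called markers went in opposite directions. The glucose transporter gene Slc2a1 rose (0.68 ± 0.08, edgeR adjusted p = 0.000241) and held without each library in turn. The growth factor receptor gene Kdr fell (-0.63 ± 0.14, edgeR adjusted p = 0.0276). Kdr lost its call in DESeq2 (adjusted p = 0.0655) and when control replicate 1 (0.138) or ATO replicate 2 (0.0560) was left out.

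**Figure D3:**
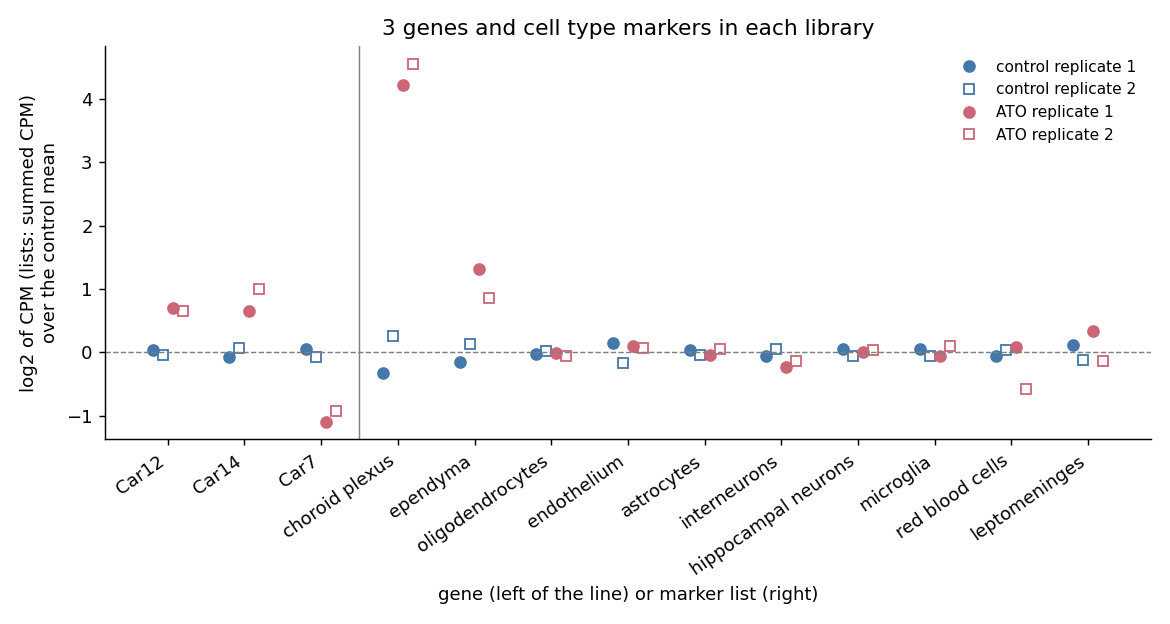
Log2 of normalised CPM over the control mean in each library for Car12, Car14 and Car7 (left of the line) and for the summed CPM of 10 cell type marker lists (right). Choroid plexus markers stand far above 0 in both ATO libraries, and the sums for hippocampal neurons and oligodendrocytes stay near 0.

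The other family genes in the table did not pass. Car15, a membrane-anchored form, had counts of 55 and 59 in the controls against 111 and 71 in ATO (log2 0.48 ± 0.25, edgeR adjusted p = 0.345), and its value was 0.16 without ATO replicate 1. Car5b, a mitochondrial form, had 69 and 73 against 93 and 74 counts (log2 0.04 ± 0.23, edgeR adjusted p = 0.946). The receptor phosphatases Ptprg and Ptprz1, which carry a carbonic anhydrase-like domain, were at -0.07 ± 0.08 and 0.04 ± 0.08 (adjusted p = 0.698 and 0.837).

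The substrates and products of the enzymes pass through transporters, and 13 of 18 listed bicarbonate transporters were tested. Of these 3 rose and 0 fell, against 2.87% higher and 0.859% lower of all genes, with a median log2 fold change of 0.07. Of the 3, Slc4a5 and Slc26a7 were under 1 CPM in both controls. They were measured only through the ATO libraries, so only a rise could be seen for them. Slc4a2, a chloride-bicarbonate exchanger, had counts of 384 and 405 in the controls against 816 and 872 in ATO (log2 0.91 ± 0.10, edgeR adjusted p = 9.49e-05), and held without each library in turn. The sodium-bicarbonate cotransporter gene Slc4a5, which is also one of the choroid plexus markers, had 4 and 1 counts in the controls against 260 and 292 in ATO (log2 6.53, with 7.78 without control replicate 1 and 5.86 without control replicate 2). Slc26a7, an anion exchanger gene, rose from 9 and 8 to 32 and 29 counts (edgeR adjusted p = 0.0470), and its call was lost without each library in turn (0.0902 to 0.209). The exchanger gene Slc4a3 did not pass, at -0.27 ± 0.07 (adjusted p = 0.0636).

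Of 17 sodium-proton exchangers and monocarboxylate transporters 2 rose and 0 fell, with a median of 0.01. They were the lactate transporter gene Slc16a8 (1.56 ± 0.33, edgeR adjusted p = 0.0198, and 0.144 without control replicate 2) and Emb, which encodes the transporter partner embigin (0.42 ± 0.11, adjusted p = 0.0450, and 0.0932 to 0.207 without each library in turn). Of 12 tested sensors of acid, bicarbonate and carbon dioxide 1 rose and 0 fell, with a median of 0.009. It was the connexin gene Gjb6, of astrocytes, which was at 0.44 ± 0.09 (edgeR adjusted p = 0.0137) and lost its call without control replicate 2 (0.116) and ATO replicate 1 (0.110). Among 4 aquaporins tested 1 rose, the choroid plexus water channel gene Aqp1 (4.47 ± 0.27, edgeR adjusted p = 9.63e-08). Aqp1 was under 1 CPM in both controls and was measured only through the ATO libraries, so only a rise could be seen. Aqp4 of astrocytes did not pass at 0.37 ± 0.10 (edgeR adjusted p = 0.0528), with values from 0.20 to 0.55 when each library was left out in turn. With the replicate number as a block Aqp4 passed (edgeR adjusted p = 0.00105).

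Partners of the related proteins gave no call: of 6 genes of inositol trisphosphate receptors and neurexins 0 rose and 0 fell in edgeR, 0 had an unadjusted p under 0.05, and the median was -0.10. Itpr1, the receptor bound by Car8, was at -0.11 ± 0.11 (edgeR adjusted p = 0.671), and its value was 0.11 without ATO replicate 1 and -0.37 without ATO replicate 2, where it passed (0.0483). The neurexin genes Nrxn2 and Nrxn3 were at -0.07 ± 0.07 and -0.10 ± 0.08. Of 14 chloride cotransporter and GABA-A receptor genes, through which bicarbonate and chloride move at inhibitory synapses, 2 rose and 1 fell, with a median of -0.02. Slc12a7 was at 0.81 ± 0.21 (edgeR adjusted p = 0.0435), and without each library in turn its adjusted p was 0.0536 to 0.197. Slc12a2, which loads cells with chloride, was at 0.31 ± 0.08 (edgeR adjusted p = 0.0464; 0.105 to 0.238 without each library in turn). The receptor subunit gene Gabra3 was at -0.36 ± 0.09 (edgeR adjusted p = 0.0481) and lost its call without control replicate 1 (0.0618), control replicate 2 (0.219) and ATO replicate 1 (0.429).

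**Figure D4:**
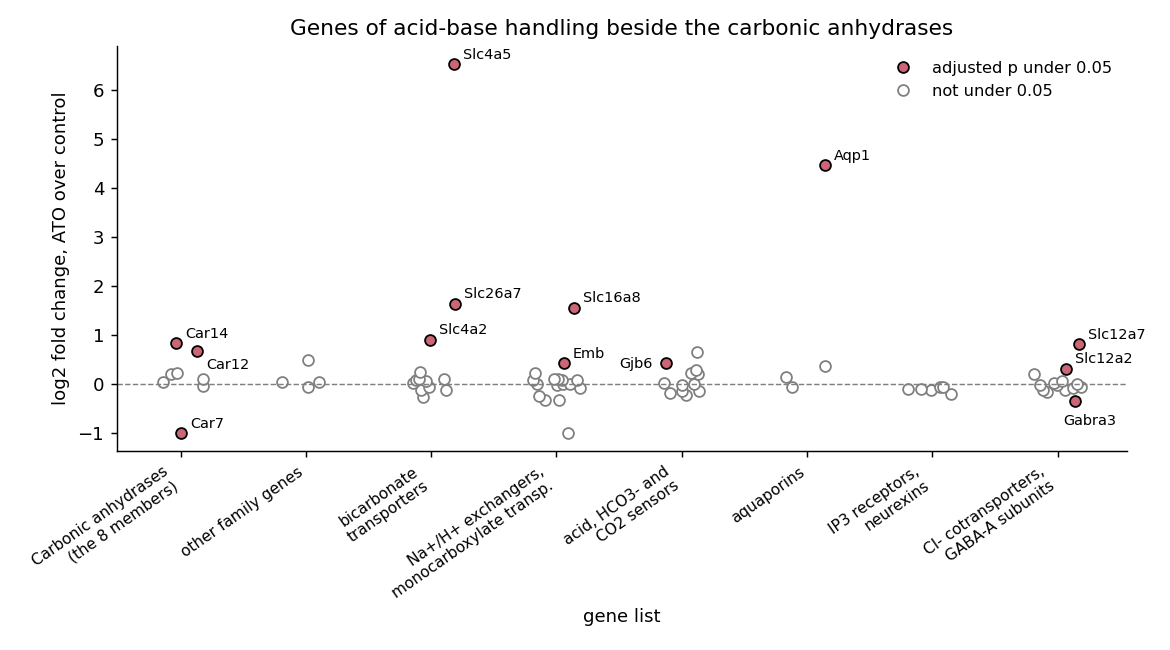
Log2 fold change of ATO over control for each gene of the carbonic anhydrase family and of 7 lists of acid-base handling, with filled points for an adjusted p under 0.05. Most points lie near 0, and those that passed include Slc4a5 at 6.53, Aqp1 at 4.47 and Car7 at -1.002.

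The genes whose values over the 4 libraries were most like a member were found by the root mean square difference of log2 CPM centred on each gene's mean, among 11443 genes; with 4 libraries this describes likeness of pattern only. Nearest to Car12 were Htr2c, the serotonin 2C receptor gene (difference 0.0116 on the log2 scale), Slc29a4, a monoamine transporter gene (0.0187), and the adiponectin receptor gene Adipor2 (0.0248). Htr2c had 34.0 and 32.8 CPM in the controls against 54.4 and 53.0 in ATO. Nearest to Car14 were the pyruvate dehydrogenase kinase gene Pdk4 (0.0544), the acetyl-CoA carboxylase gene Acacb (0.0666) and the fatty acid elongase gene Elovl7 (0.0693). Nearest to Car7 were Haus1, a subunit gene of the augmin complex (0.0987), the dynein-related gene Dnhd1 (0.0998) and the zinc finger gene Zkscan2 (0.112). Zkscan2 had 54.3 and 46.8 CPM in the controls against 28.4 and 27.8 in ATO.

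In the authors' deposited table the log2 fold changes were -0.995 for Car7, 0.67 for Car12 and 0.82 for Car14, with adjusted p-values of 0.000789, 0.000394 and 0.0260. That table marked none of the 8 genes as differentially expressed. The 153 genes marked in the authors' deposited table all had an absolute log2 fold change of 1.02 or more. Another 365 genes had an adjusted p under 0.05 in the authors' deposited table without a mark, with absolute values of at most 0.995, and Car7, Car12 and Car14 are among them.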

How the data were processed

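The data are 4 RNA libraries of hippocampus, 2 per group. The submitters' processing notes name FastQC 0.10.1 and cutadapt 1.9.1, the aligner HISAT2 2.0.1, the counter HTSeq 0.6.1, limma 3.47.15, R 4.1.0 and the build GRCm38; their settings are not stated there. The authors deposited, per the file headers, raw counts and FPKM per library, their log2 fold change and their p-value and adjusted p-value. All 15713 genes exceeded 1 CPM in 2 or more libraries, and genes under that level were not analysed here. Counts summed to 14832214 and 15078919 (control) and 17251032 and 16696546 (ATO), and 1 count was worth 0.0574 to 0.0678 normalised CPM. GENCODE vM21 held 99.9% of the identifiers.

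The main test was edgeR's quasi-likelihood test (version 4.0.16, R 4.3.3) of ATO against control without covariates, after TMM scaling (factors 0.994 to 1.01); filterByExpr removed 0 genes. P-values were adjusted by Benjamini-Hochberg over all genes. The SE is the log2 fold change over the square root of F, and 95% intervals use this SE. The members, gene lists, markers and motifs were chosen with earlier results of these data known. Named genes are the members, the other family genes in the table, up to 4 genes of a list by smallest p, and the 3 genes nearest to each member that passed (mean of 5 CPM or more, no predicted genes or pseudogenes). A gene of the lists is not reported here, and the list counts are without it. Marker lists are given by sums and counts; Npy, Wfs1, Opalin, Slc2a1, Kdr, Igf2, Dcn, Wfdc2 and Aph1a were named after their values were seen. Alternatives were DESeq2 1.42.0, limma-voom (limma 3.58.1), other scalings and filters, and leaving out each library, where a lone library is assumed to vary like the others. On counts simulated for 15713 genes of this comparison with 200 changed, 61.2%, 85.1% and 97.0% of genes changed 1.5-fold, 2-fold and 4-fold were recovered, and 15 of 177 calls were false.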

Additional observations from a re-analysis of the deposited data

How the results depend on the processing

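Car7 and Car12 kept their direction and their call in all 12 alternatives (log2 -1.09 to -0.92 and 0.63 to 0.71; adjusted p at most 0.0114 and 0.00669). Car14 kept its direction in all 12 and its call in 8; its call was lost in DESeq2's Wald test (log2 0.83, adjusted p = 0.0561) and in 3 of the 4 fits that left out a library (log2 0.65 to 1.00 over the 4). With 1 library left out, the values of Car4 (-0.045 to 0.118), Car8 (-0.021 to 0.469), Car11 (-0.162 to 0.0715), Car5b (-0.0947 to 0.166), Ptprz1 (-0.0109 to 0.0879) and Itpr1 (-0.367 to 0.108) changed sign; the cause was not tested. The 586 genes past the threshold over the table (451 higher, 135 lower) became 316 (252 higher, 64 lower) in DESeq2's Wald test and 222 to 611 with 1 library left out (180 to 443 higher, 42 to 168 lower), lowest without control replicate 2, and without ATO replicate 1 there were 300 higher. With the replicate number as a block the count was 1366 (890 higher, 476 lower), with the same 3 carbonic anhydrases passing. The labels do not say that the numbers pair the samples, and the deviations of same-numbered libraries correlated by 0.0877 across genes. With the block Aqp4 (adjusted p = 0.00105), Slc4a3 (0.0105) and Acacb (0.0169) also passed. Among the 8 members counts were lowest for Car8 (52 to 84) and Car14 (92 to 217).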
